A study of Homo sapiens with 9 samples.

Results

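The 9 genes described here encode the machinery by which a cell shows peptides on major histocompatibility complex (MHC) class I molecules. They were chosen by their GENCODE release 44 symbols, and they comprise 9 of the 62700 genes in the deposited tables: HLA-B, HLA-C, HLA-E, HLA-F, B2M, TAP1, TAP2, TAPBP and NLRC5. All 9 passed the filter on low counts, which left 14436 genes for testing. Class I genes outside this set are given only where they belong to a list named below, and further ones were not analysed here.

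RNA was sequenced from HAL-01, a cell line of B cell acute lymphoblastic leukemia (B-ALL) that carries the t(17;19) translocation and makes the fusion transcription factor TCF3::HLF. All cells stably expressed Cas9 with GFP and were harvested on day 13. The SCR1 cells received a scrambled guide, whereas the other cells received sgRNA_96 or sgRNA_97, which target the HLF motif inside the enhancer of MEF2C that TCF3::HLF binds, and both guides together form the MEF2C-enhancer KO class. Each group had 3 libraries, numbered 1, 3 and 4, so that 6 KO libraries were compared with 3 SCR1 libraries of the same line. The line stands for 1 leukemia, and the share of cells edited, the exact cuts and the loss of unedited or edited cells were not analysed here. Nothing in the labels says that the replicates were separate transductions, so p-values measure the spread between these libraries, which may be technical.

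Library totals ranged from 15212462 to 29777361 estimated counts and mitochondrial genes took 5.97% to 7.01% of them. On the first principal component, which held 22.1% of the variance, the KO libraries (highest -3.48) lay apart from the SCR1 libraries (lowest 23.6). On the second component, with 15.4%, sgRNA_96 replicate 1 (30.8) and sgRNA_97 replicate 1 (-34) stood apart from the rest, and 5 of the 9 genes passed the test without either of them, as with them. MEF2C, the gene of the targeted enhancer, was measured at 552 ± 13.4 CPM in SCR1 (SD, n = 3) and 509 ± 22.1 in KO (n = 6), a log2 difference of -0.12 (SE 0.042, adjusted p = 0.062), and 5 of 6 KO libraries lay below every SCR1 library. Of the 12 B lineage markers, all were detected and 3 were higher in KO (RAG1, BLNK and DNTT), at log2 0.87, 0.34 and 0.26. This was 25% called against 20.7% of all genes tested, and 25% higher against 10.1%. The median of the 12 was 0.047 and 6 were above 0. IGLL1 (log2 -0.18, adjusted p = 0.0543), CD79B (-0.14, 0.205) and CD79A (-0.10, 0.435) were among those below 0, and none of the 12 was called lower. Of the 8 T and NK cell markers 5 were at 0 in every library, including CD3D, CD3E and CD3G, and their summed level was 9.12 to 10.1 CPM in SCR1 and 7.26 to 8.37 in KO, nearly all of it NKG7. The summed level of 8 myeloid markers was 19.1 to 21.8 CPM in SCR1 and 19.8 to 24.5 in KO, with ELANE and FCGR3A at 0. Of the 2 tested, MPO was higher in KO (2.75 ± 0.164 and 5.82 ± 1.19 CPM, log2 1.08, adjusted p = 0.000894). CSF1R, which held most of the sum, did not pass (17.2 ± 1.37 and 14.8 ± 1.4 CPM, log2 -0.21, adjusted p = 0.124). All 5 erythroid markers were at 0, and the 5 stromal markers summed to 19.6 to 24.1 CPM in SCR1 and 17.4 to 20.9 in KO, nearly all of it PDGFRB. The part of such cells in the results below was not tested.

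As background, a class I molecule is a heavy chain from an HLA gene that is paired with B2M, the invariant light chain, and holds a short peptide. Proteasomes cut the peptides from cytosolic proteins, the TAP1 and TAP2 transporter moves them into the endoplasmic reticulum, and tapasin, the product of TAPBP, holds empty molecules at the transporter until a peptide fits. T cells read the peptide on HLA-B and HLA-C, and natural killer cells are held in check by HLA-C and HLA-E, which is why class I levels matter for immune recognition of leukemia cells. NLRC5 is the coactivator of class I promoters, where it acts with RFX, CREB/ATF and NF-Y factors at the X and Y boxes, while interferon regulatory factors (IRF) and NF-kappaB bind further upstream.

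The 200 bases before the RefSeq start were in the promoter table for 7 of the 9 genes, and they are shown because NLRC5 itself is 1 of the genes compared. Capitals mark matches on either strand to an IRF core (GAAANNGAA), a kappaB site (GGGGANTCC), the CRE-like part of the X box (TGACGC) and the Y box (CCAAT). Neighbouring IRF matches overlap each other in TAP1, TAPBP and B2M, as do the kappaB matches on both strands in HLA-B. Each sequence is given 5′ to 3′ on the strand of its gene, from RefSeq on GRCh38.p14.
HLA-B: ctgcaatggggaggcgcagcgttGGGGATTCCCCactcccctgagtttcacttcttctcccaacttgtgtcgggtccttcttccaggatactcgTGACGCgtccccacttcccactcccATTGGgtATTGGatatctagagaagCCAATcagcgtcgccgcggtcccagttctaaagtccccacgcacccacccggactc
HLA-C: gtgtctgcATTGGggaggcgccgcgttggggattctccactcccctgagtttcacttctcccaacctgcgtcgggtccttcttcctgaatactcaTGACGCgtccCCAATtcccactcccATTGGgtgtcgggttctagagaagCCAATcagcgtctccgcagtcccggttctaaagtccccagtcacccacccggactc
HLA-F: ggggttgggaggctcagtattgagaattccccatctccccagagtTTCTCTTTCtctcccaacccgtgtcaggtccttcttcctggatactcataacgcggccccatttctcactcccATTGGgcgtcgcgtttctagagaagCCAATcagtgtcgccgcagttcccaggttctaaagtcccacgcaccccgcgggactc
B2M: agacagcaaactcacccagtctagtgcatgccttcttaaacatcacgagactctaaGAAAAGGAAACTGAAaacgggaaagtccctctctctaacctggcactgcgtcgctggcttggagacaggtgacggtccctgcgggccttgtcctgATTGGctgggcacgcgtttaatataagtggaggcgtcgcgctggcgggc
TAP1: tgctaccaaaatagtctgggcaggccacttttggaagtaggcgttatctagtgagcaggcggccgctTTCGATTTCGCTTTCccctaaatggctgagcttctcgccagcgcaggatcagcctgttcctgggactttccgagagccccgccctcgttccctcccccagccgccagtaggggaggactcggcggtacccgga
TAP2: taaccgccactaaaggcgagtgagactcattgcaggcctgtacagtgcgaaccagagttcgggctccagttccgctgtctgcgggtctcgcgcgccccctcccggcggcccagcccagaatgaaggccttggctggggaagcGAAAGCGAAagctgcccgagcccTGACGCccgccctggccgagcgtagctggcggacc
TAPBP: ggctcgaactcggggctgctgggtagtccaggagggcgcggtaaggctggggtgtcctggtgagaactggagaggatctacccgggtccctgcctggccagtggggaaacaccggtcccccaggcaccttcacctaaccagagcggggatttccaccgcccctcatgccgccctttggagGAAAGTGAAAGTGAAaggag

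These windows lie at chr6:31357180-31357379, chr6:31272093-31272292, chr6:32853705-32853904, chr6:32838740-32838939 and chr6:33314079-33314278 on the minus strand, and at chr6:29723234-29723433 and chr15:44711317-44711516 on the plus strand. HLA-B and HLA-C both held TGACGC, 106 to 101 and 105 to 100 bases before the start, and a CCAAT in the same place, 56 to 52 bases before it. HLA-F held the CCAAT 57 to 53 bases before its start, without TGACGC. The IRF core, searched as GAAANNGAA alone, was present in 5 of 7 genes (HLA-F, B2M, TAP1, TAP2 and TAPBP) and in 5.44% of the 35116 promoter windows. TGACGC was present in 3 of 7 (6.67% of windows), CCAAT in 4 of 7 (28%) and the kappaB string GGGGANTCC in HLA-B alone (1.04%). Only these exact strings were searched. Sites of the same factors with other letters or spacing were not counted, so a window without a match can still hold such a site. TAP1 has a second listed start, whose window held none of these motifs. The HLF palindrome TTACGTAA (0.0911% of windows), its variant TTATGTAA (0.641%) and the MEF2 consensus (2.12%) were found in 0 of 7 genes in this window.

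Levels of different genes were compared in TPM, which corrects for transcript length. In SCR1 cells B2M was highest at 2450 ± 115 TPM (SD, n = 3), and HLA-B followed at 1289 ± 65.3. HLA-C stood at 380 ± 18.1 TPM and HLA-E at 213 ± 9.1. The remaining genes formed a lower tier, from TAP1 at 65.6 ± 1.16 TPM over TAPBP (60.1 ± 1.3), HLA-F (54.7 ± 4.09) and NLRC5 (51.4 ± 3.88) down to TAP2 at 30.8 ± 0.679. Only HLA-F and NLRC5 had overlapping ranges among neighbours in this order. In KO cells HLA-F (83.4 ± 10.9 TPM, n = 6) and NLRC5 (80.1 ± 8.71) came before TAP1 (66.8 ± 3.22) and TAPBP (63.2 ± 2.67). The KO ranges of HLA-F and NLRC5, of NLRC5 and TAP1, and of TAP1 and TAPBP overlapped, and differences between genes were not tested. At both ends the order was that of SCR1, with B2M at 2860 ± 139 TPM, HLA-B at 1484 ± 78.3, HLA-C at 428 ± 24.2, HLA-E at 236 ± 13.6 and TAP2 at 32.7 ± 2.43.

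**Figure D1:**
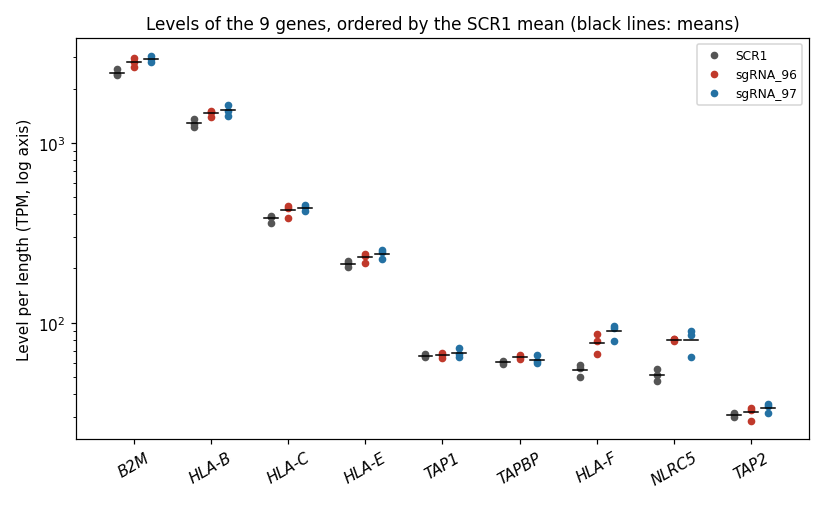
Level per length (TPM, log axis) of the 9 genes in each library, by group, ordered by the SCR1 mean, with black lines at the group means. B2M (2450 TPM in SCR1) and HLA-B (1289 TPM) lie far above the transporter, tapasin and NLRC5 genes. The means of HLA-F and NLRC5 move above those of TAP1 and TAPBP in the KO groups.

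For comparisons between groups, counts were scaled to CPM, counts per 1000000 of the library size after TMM scaling. Differences are log2 fold changes from the quasi-likelihood test of edgeR with Benjamini-Hochberg adjustment over all 14436 genes, and a gene passed the test at an adjusted p under 0.05. Fewer cells of a kind and less RNA per cell cannot be told apart in such bulk libraries.

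NLRC5 (chr16:56989485-57083531, plus strand, hg38) is the transactivator of the set. It was measured at 109, 110 and 108 CPM in SCR1 replicates 1, 3 and 4. It reached 158, 167 and 157 CPM in the sgRNA_96 libraries and 146, 174 and 170 CPM in the sgRNA_97 libraries. Every KO library was above every SCR1 library, and the SCR1 values were nearly the same. NLRC5 rose by 0.57 on the log2 scale in KO (SE 0.054, 95% interval 0.46 to 0.69, adjusted p = 3.53e-06), from 109 ± 1.07 to 162 ± 10.5 CPM, or 1.49-fold. Its difference lay at percentile 94.8 of all genes tested. The rise was 0.56 with sgRNA_96 (adjusted p = 5.79e-05) and 0.59 with sgRNA_97 (adjusted p = 3.88e-05). It passed the test in all 9 fits that each left out 1 library.

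HLA-F (chr6:29722775-29738528, plus strand) encodes a class I heavy chain of low surface abundance that can bind receptors of natural killer cells. It was measured at 38.4, 36.3 and 37.8 CPM in the SCR1 libraries. The sgRNA_96 libraries gave 51.1, 57.2 and 52 CPM, and the sgRNA_97 libraries gave 50.9, 57.8 and 62 CPM. All 6 KO libraries were thus above all SCR1 libraries. HLA-F rose by 0.56 on the log2 scale (SE 0.067, 95% interval 0.41 to 0.70, adjusted p = 3.9e-05), from 37.5 ± 1.08 to 55.2 ± 4.53 CPM, or 1.47-fold. The rise was 0.51 with sgRNA_96 (adjusted p = 0.000634) and 0.60 with sgRNA_97 (adjusted p = 0.000152). With only the transcripts annotated as protein coding summed, it was 0.34 in KO (adjusted p = 0.0435), and it did not pass for either guide alone (adjusted p = 0.0755 and 0.147). HLA-F had the fewest counts of the set, 637 to 1175 per library.

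B2M (chr15:44711358-44718851, plus strand), the light chain shared by every class I molecule, was measured at 1416, 1454 and 1445 CPM in SCR1. The sgRNA_96 libraries gave 1494, 1787 and 1619 CPM and the sgRNA_97 libraries 1712, 1799 and 1642 CPM. The groups did not overlap, with sgRNA_96 replicate 1 closest to the controls. B2M rose by 0.22 on the log2 scale (SE 0.05, 95% interval 0.11 to 0.33, adjusted p = 0.00594), from 1438 ± 20.1 to 1675 ± 115 CPM, or 1.16-fold. With sgRNA_97 it rose by 0.26 (adjusted p = 0.00814), and with sgRNA_96 the difference was 0.18 (adjusted p = 0.0515). That difference was 0.24 (adjusted p = 0.00815) without sgRNA_96 replicate 1 and 0.11 (adjusted p = 0.224) without sgRNA_96 replicate 3. The transcripts of B2M are poorer in G and C (39.4%) than those of any other gene of the set (49.2% to 60.1%). With a trend on GC content removed from each library, the B2M difference was 0.14 in KO (adjusted p = 0.0186) and 0.11 with sgRNA_96 (adjusted p = 0.123).

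HLA-B (chr6:31353872-31367067, minus strand) encodes a classical heavy chain that presents peptides to CD8 T cells. Its SCR1 values were 1434, 1282 and 1374 CPM. The sgRNA_96 libraries gave 1580, 1606 and 1427 CPM and the sgRNA_97 libraries 1503, 1593 and 1657 CPM. All KO libraries but sgRNA_96 replicate 4 were above the controls, and that library lay between the SCR1 values. HLA-B rose by 0.20 in KO on the log2 scale (SE 0.048, 95% interval 0.094 to 0.30, adjusted p = 0.00924), from 1363 ± 76.8 to 1561 ± 82.3 CPM, or 1.14-fold. The call rested on SCR1 replicate 3, the lowest control, since without it the difference was 0.15 (adjusted p = 0.064). With sgRNA_97 HLA-B rose by 0.22 (adjusted p = 0.0187), and with sgRNA_96 the difference was 0.17 (adjusted p = 0.0601). The call with sgRNA_97 was lost without sgRNA_97 replicate 3 or 4 or SCR1 replicate 3 or 4 (adjusted p = 0.0606, 0.081, 0.0808 and 0.057), and HLA-B passed with sgRNA_96 without its replicate 4 (adjusted p = 0.0246).

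HLA-C (chr6:31268749-31272130, minus strand), the heavy chain read by both T cells and inhibitory receptors of natural killer cells, was measured at 417, 373 and 406 CPM in SCR1. The KO values were 465, 460 and 394 CPM with sgRNA_96 and 439, 464 and 469 CPM with sgRNA_97. Again sgRNA_96 replicate 4 was the only KO library within the SCR1 range. HLA-C rose by 0.17 in KO on the log2 scale (SE 0.055, 95% interval 0.054 to 0.29, adjusted p = 0.0371), from 399 ± 22.8 to 449 ± 28.8 CPM, or 1.13-fold. This call was lost without any 1 of the SCR1 libraries (adjusted p = 0.0603, 0.192 and 0.0862 without replicates 1, 3 and 4). It was also lost without sgRNA_96 replicate 3 (adjusted p = 0.0779), sgRNA_97 replicate 3 (0.0654) or sgRNA_97 replicate 4 (0.0809). With sgRNA_97 it rose by 0.20 (adjusted p = 0.0478), and with sgRNA_96 the difference was 0.14 (adjusted p = 0.174). Without 1 library the sgRNA_96 difference ranged from 0.092 (adjusted p = 0.455, without SCR1 replicate 3) to 0.21 (adjusted p = 0.0357, without sgRNA_96 replicate 4, the only such fit in which it passed). The call with sgRNA_97 was lost in 7 of the 9 fits without 1 library (adjusted p up to 0.176).

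HLA-E (chr6:30489509-30494194, plus strand) displays leader peptides of other heavy chains to the NKG2A receptor. It was measured at 393, 391 and 368 CPM in SCR1, at 423, 432 and 371 CPM with sgRNA_96 and at 407, 447 and 441 CPM with sgRNA_97. Its KO values were above the controls in 5 of 6 libraries, with sgRNA_96 replicate 4 again low. The KO difference was 0.13 on the log2 scale (SE 0.053, 95% interval 0.017 to 0.24) and did not pass the test (adjusted p = 0.0971). It passed without sgRNA_96 replicate 4 (0.16, adjusted p = 0.0176).

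Heavy chain genes are near-identical over long stretches, and Salmon divides reads that match several of them. The sum over HLA-B, HLA-C, HLA-E and HLA-F does not depend on the division among these 4. It was 2184 ± 100 CPM in SCR1 (SD, n = 3), 2439 ± 170 with sgRNA_96 and 2530 ± 118 with sgRNA_97. The mean of the 6 KO libraries, 2485 ± 140 CPM, was 1.14 times that of SCR1, and 5 of 6 were above every SCR1 library. The lowest KO sum was 2244 CPM, in sgRNA_96 replicate 4. HAL-01 alleles that differ from the reference can change how many reads reach each gene, and the alleles of the line were not analysed here.

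The genes of the peptide transporter and its bridge did not pass the test. TAP1 (chr6:32845209-32853816, minus strand) was measured at 111, 106 and 108 CPM in SCR1, at 109, 114 and 104 with sgRNA_96 and at 102, 105 and 115 with sgRNA_97. The groups overlapped on both sides, and the difference was -0.0026 on the log2 scale (95% interval -0.10 to 0.10, adjusted p = 0.978), or a fold of 0.93 to 1.07. With coding transcripts only, the TAP1 difference in KO was -0.094 (adjusted p = 0.578). Over the 19 alternatives TAP1 reached -0.20 with sgRNA_97, without a call in any of them (lowest adjusted p = 0.257). TAP2 (chr6:32821833-32838739, minus strand), its partner in the transporter, was at 111 ± 4.08 CPM in SCR1 and 117 ± 4.13 in KO. The TAP2 difference was 0.075 (95% interval -0.021 to 0.17, adjusted p = 0.268), with 4 of 6 KO libraries above the controls. TAPBP (chr6:33299694-33314284, minus strand) was at 145 ± 3.99 CPM in SCR1 and 151 ± 5.2 in KO, a difference of 0.057 (95% interval -0.034 to 0.15, adjusted p = 0.384), again with 4 of 6 above. The upper bounds of these 3 intervals lie below the lower bounds of NLRC5 (0.46) and HLA-F (0.41).

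**Figure D2:**
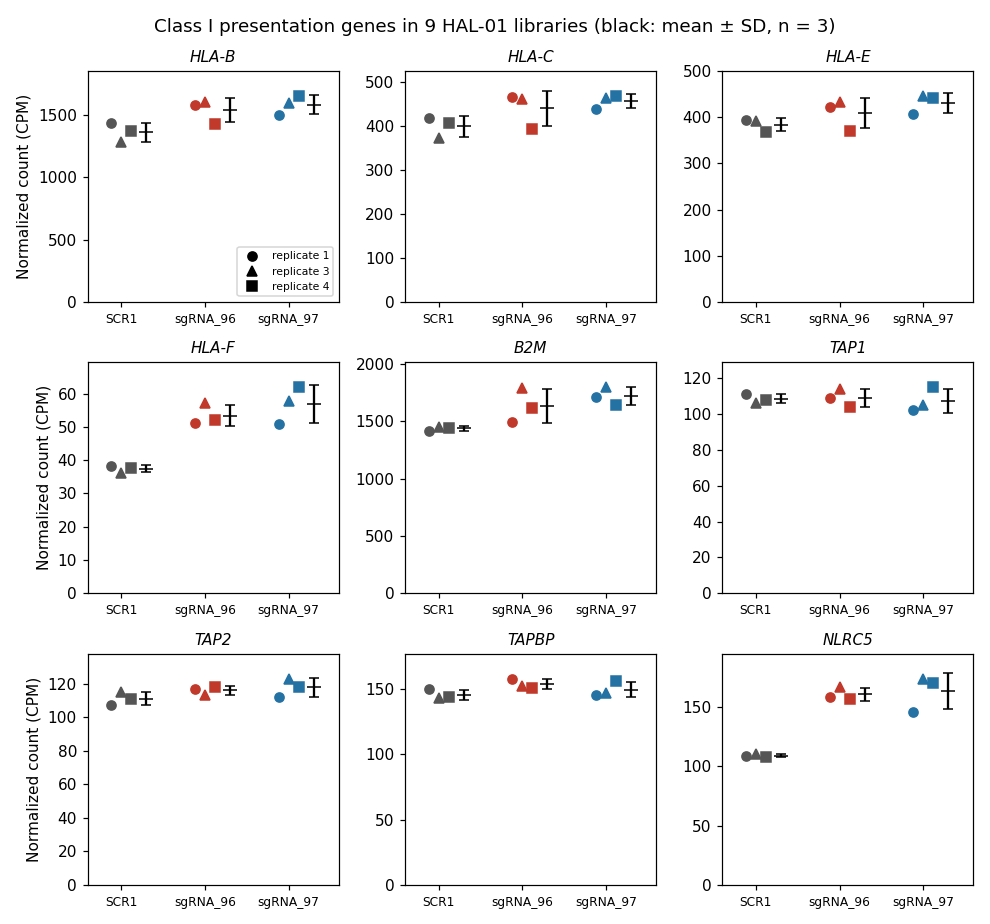
Normalized counts (CPM, axes from 0) of the 9 genes in each library, with 1 panel a gene, symbols for replicate numbers 1, 3 and 4, and black bars for mean ± SD of 3 libraries. NLRC5, HLA-F and B2M show no overlap between the SCR1 and KO libraries, whereas TAP1, TAP2 and TAPBP overlap, and sgRNA_96 replicate 4 lies low for HLA-B (1427 CPM), HLA-C (394) and HLA-E (371).

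In KO against SCR1, 5 of the 9 genes passed the test, all of them higher, against 20.7% of all genes tested (10.1% higher and 10.6% lower). The count was 3 without SCR1 replicate 3 and 4 to 6 without any other library. The median difference of the 9 was 0.17 on the log2 scale and 8 were above 0, whereas the median of all genes was 0.0028. Groups that did not overlap, with every KO library higher, were found for 3 of the 9 (NLRC5, HLA-F and B2M), against 10.1% of all genes. Over all genes 1458 were higher and 1526 lower, and with the trend on GC content removed 1369 were higher and 2392 lower, a setting in which 6 of the 9 were called higher. Together the 9 genes took 0.408% of all counts in SCR1 (range 0.403% to 0.413%) and 0.47% in KO (0.444% to 0.491%).

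Each guide was compared with the same 3 SCR1 libraries, so the guides do not count as independent comparisons. With sgRNA_96, 2 of the 9 genes were called (NLRC5 and HLA-F), both higher, against 11.2% of all genes (5.78% higher). Without sgRNA_96 replicate 4 the count was 4. With sgRNA_97, 5 were called (NLRC5, HLA-F, B2M, HLA-B and HLA-C), all higher, against 15.1% of all genes (7.35% higher). This count was 3 without sgRNA_97 replicate 3 or 4, or without SCR1 replicate 3 or 4. The difference between the guides was tested directly, and 0 of the 9 genes passed (0.0208% of all genes), with 0 of 9 at an unadjusted p under 0.05 and 0 of 9 by DESeq2. The largest difference between guides was 0.091 for HLA-F, with a 95% interval of -0.069 to 0.25, so that a gap of that size between the guides was not detectable at this depth and number of libraries.

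**Figure D3:**
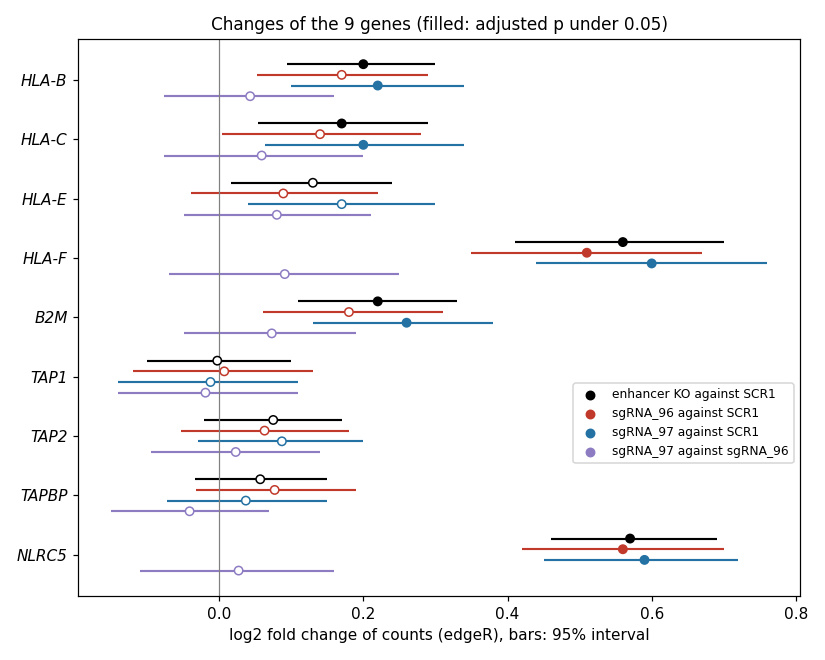
Log2 fold changes of counts with 95% intervals for the 9 genes, in black for enhancer KO against SCR1, red and blue for each guide against SCR1, and violet for sgRNA_97 against sgRNA_96, with filled points where the adjusted p was under 0.05. NLRC5 (0.57) and HLA-F (0.56) stand apart from the other genes, and all intervals between the guides include 0.

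Beyond the group means, some of the genes varied together from library to library. Within groups, deviations of HLA-B and HLA-C correlated with r = 0.949 over the 9 libraries, and these genes can share reads. The next highest were HLA-F with TAP1 (r = 0.863), HLA-B with TAP1 (0.857) and HLA-F with NLRC5 (0.842). B2M and TAPBP deviated in opposite directions (r = -0.628). Over all 9 libraries the mean standardised level of the 9 genes was followed most closely by HLA-B (r = 0.964), HLA-F (0.946) and NLRC5 (0.928), and least by TAP1 (0.422). Outside the set the 5 genes closest to this mean were PGS1 (r = 0.974), RASGRP2 (0.972), ENSG00000287839 (0.971), SUN2 (0.971) and SH3BP2 (0.968). RASGRP2, a guanine nucleotide exchange factor for Rap1, was at 70.9 ± 1.87 CPM in SCR1 and 89.3 ± 6.53 in KO, and SUN2, a protein of the inner nuclear membrane, at 305 ± 17.1 and 365 ± 23.8. Each of the 9 genes is itself part of this mean, which raises its own r. The correlations over all 9 libraries also hold the difference between the groups and are given as a description.

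The deposited tables list transcripts, and a gene's sum can hide which of them moved. HLA-E was almost all 1 coding transcript, HLA-E-201, with 98.9% of its CPM in SCR1 and 98.8% in KO. For B2M the main transcript B2M-211 held 90.8% and 90.6%, and for HLA-B the transcript HLA-B-249 held 87.9% and 86.9%. HLA-F was more mixed, and its coding transcripts took 70% to 73.9% of its CPM in SCR1 and 48.6% to 79% in KO. The leading coding transcript HLA-F-217 was at 24 ± 0.993 CPM in SCR1 and 29.4 ± 5.42 in KO, with overlapping values. HLA-F-222, a transcript with no defined coding sequence, went from 1.64 ± 0.0527 to 4.31 ± 0.801 CPM and from 4.36% to 7.76% of the gene, without overlap between the groups. HLA-F-226, also without a defined coding sequence, went from 4.46 ± 0.86 to 7.43 ± 0.905 CPM without overlap, while its share of the gene overlapped.

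NLRC5 was spread over more transcripts, with coding ones at 47.6% to 56.2% of its CPM in SCR1 and 47.7% to 56.7% in KO. Its coding transcript NLRC5-229 was at 24.7 ± 10.7 CPM in SCR1 and 58.6 ± 8.11 in KO, with no overlap. As a share of the gene, NLRC5-229 overlapped between the groups (11.5% to 29.2% in SCR1 and 25.3% to 42.6% in KO). The transcript NLRC5-201, also coding, was at 28.1 ± 15 CPM in SCR1 and 19.5 ± 12.1 in KO, with wide overlap. The retained-intron transcript NLRC5-222 went from 7.68 ± 0.52 to 17.8 ± 3.44 CPM and from 7.06% to 11% of the gene, with no overlap in either. No test was run on transcripts, whose values rest on how Salmon divides reads among models that share exons. With coding transcripts only, the NLRC5 gene difference was 0.58 (adjusted p = 0.000258).

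Several gene models overlap those of the set, and no source used here says if reads were assigned by strand. TAP1 overlaps PSMB9 and PSMB8-AS1 on the opposite strand, HLA-F overlaps HLA-F-AS1, and NLRC5 overlaps ENSG00000259922 and ENSG00000260145. HLA-B holds DHFRP2 and MIR6891 on its own strand, and TAP2 shares its strand with the model ENSG00000250264. No model overlaps HLA-C, HLA-E or B2M.

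The other genes of the pathway moved in both directions. Of 69 listed, 67 were tested, 7 were higher and 12 lower in KO, or 28.4% called against 20.7% of all genes, with a median difference of -0.02. The count of 19 was 9 without SCR1 replicate 1 and 9 without SCR1 replicate 4. The genes that supply peptides were mostly on the lower side, with 7 of 16 lower and 1 higher and a median of -0.086. The share lower was 43.8% against 10.6% of all genes, and the share higher 6.25% against 10.1%. The higher one was the aminopeptidase LNPEP (log2 0.16, adjusted p = 0.0359), whose call was lost in 6 of the 9 fits that left out a library (adjusted p up to 0.218). Without SCR1 replicate 1, 3 of the 16 peptide supply genes were lower, against 726 of all 14731 genes tested in that fit. Without SCR1 replicate 4, 4 of the 16 were lower, against 901 of 14732.

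Among the 7 lower peptide supply genes were all 3 catalytic subunits of the constitutive proteasome. PSMB7 was at 126 ± 2.79 CPM in SCR1 and 103 ± 2.16 in KO (log2 -0.29, SE 0.041, adjusted p = 0.000148). PSMB5 was at 76.6 ± 6.1 and 61.8 ± 3.01 CPM (log2 -0.31, SE 0.057, adjusted p = 0.00124), and PSMB6 at 98.6 to 118 CPM in SCR1 and 86.3 to 94.6 in KO (log2 -0.28, SE 0.056, adjusted p = 0.00262). None of these 3 called genes overlapped between the groups, and the share of all genes with every KO library lower was not counted. The immunoproteasome subunits, which replace them under interferon, differed among themselves. PSMB10 was lower (70.2 ± 5.75 and 59.2 ± 2.98 CPM, log2 -0.25, adjusted p = 0.00729, 0.0678 without SCR1 replicate 1 and up to 0.169 with the length offset or limma), whereas PSMB8 (log2 -0.04, adjusted p = 0.594) and PSMB9 (log2 -0.013, adjusted p = 0.9) did not pass. PSME1 and PSME3, which activate the proteasome, and THOP1, a peptidase that degrades peptides in the cytosol, were lower in KO (log2 -0.15, -0.16 and -0.22), and all 3 calls were lost without SCR1 replicate 1 or 4 (adjusted p up to 0.114, 0.0939 and 0.128). PSME1 and PSME3 were also lost with the length offset and with coding transcripts only (adjusted p up to 0.139 and 0.727 over all alternatives). ERAP1 and ERAP2, which trim peptides in the endoplasmic reticulum, stood at log2 0.13 (adjusted p = 0.0833) and 0.11 (adjusted p = 0.124).

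Of the 8 genes for peptide loading and folding other than TAPBP, 1 was called (12.5%, against 20.7% of all genes). It was SEC61A1 of the translocation channel (log2 -0.16, adjusted p = 0.0343). That call was lost in 6 of the 9 fits that left out a library (adjusted p up to 0.203). The chaperones CALR (log2 -0.16, adjusted p = 0.0895), CANX (-0.10, 0.177) and PDIA3 (-0.077, 0.327) did not pass. Of the 7 class I-like heavy chains tested, 1 was called (14.3%, against 20.7% of all genes). This was MR1, which presents vitamin B metabolites to a class of T cells, at 32.1 ± 1.02 CPM in SCR1 and 42.1 ± 1.74 in KO without overlap (log2 0.39, SE 0.057, adjusted p = 0.000201). With an offset for transcript length the MR1 call was lost (adjusted p up to 0.301 over the alternatives). MICA, MICB, HLA-G, HFE, FCGRT and PROCR did not pass, and CD1D was at 0. Of 4 class I pseudogene models tested (HLA-H, HLA-K and HLA-L, which has 2), 0 passed in the edgeR test or in DESeq2. In the edgeR test 20.7% of all genes passed. At an unadjusted p under 0.05 in edgeR there was 1 such model, against 4834 of all 14436 genes. The summed level of the pseudogenes was 10.2 to 11.2 CPM in SCR1 and 10.8 to 13.4 in KO.

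Among the 27 transcription factors and interferon receptor genes that feed class I promoters, 5 were higher and 2 lower, with a median of 0.02. The share called was 25.9% against 20.7% of all genes, with 18.5% higher against 10.1% and 7.41% lower against 10.6%. CIITA, the coactivator of MHC class II genes and a relative of NLRC5, had the strongest call, from 195 ± 7.31 to 284 ± 13.2 CPM (log2 0.54, SE 0.047, adjusted p = 1.82e-06). STAT2, part of the factor that answers type I interferon, was at 51 ± 3.85 and 62.9 ± 3.54 CPM (log2 0.31, adjusted p = 0.00241), and it did not pass with coding transcripts only (adjusted p = 0.611) or with limma on unfiltered TPM. The kinases JAK1 (log2 0.19, adjusted p = 0.00705) and JAK2 (log2 0.33, adjusted p = 0.0132) were higher, and their calls were lost without SCR1 replicate 4 (adjusted p up to 0.0597 and 0.0869) and, for JAK2, without SCR1 replicate 1. Both were also lost with the length offset and in the limma fits (adjusted p up to 0.14 and 0.421), and JAK2 with the GC offset. IRF2 was also higher (66.1 ± 2.69 and 75.3 ± 3.68 CPM, log2 0.19, adjusted p = 0.018), without a call when SCR1 replicate 3 or 4 was left out (adjusted p up to 0.0951). IRF1 (log2 0.029, adjusted p = 0.731) and RFX5 (log2 0.10, adjusted p = 0.126), which act directly on class I promoters, did not pass. RELB of the NF-kappaB family, at 6.88 ± 1.47 and 5.15 ± 0.26 CPM (log2 -0.43, adjusted p = 0.0386), was called lower, and 6 of the 9 fits without 1 library lost that call (adjusted p up to 0.345). NFYB (log2 -0.17, adjusted p = 0.0408) was called lower as well, and 8 of those 9 fits lost it (adjusted p up to 0.15).

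Of 9 tested genes that repress or remove class I molecules, 2 were called, both lower. The share called was 22.2% against 20.7% of all genes, and the share lower was 22.2% against 10.6%. DNMT1, the maintenance DNA methyltransferase, was at 335 ± 9.01 CPM in SCR1 and 285 ± 12.5 in KO (log2 -0.24, adjusted p = 0.00128), and it did not pass with an offset for transcript length (adjusted p up to 0.871 over the alternatives). EED, a subunit of Polycomb repressive complex PRC2, was at 45 ± 1.94 and 38 ± 3.16 CPM (log2 -0.25, adjusted p = 0.0188), a call lost without SCR1 replicate 1 or 4 (adjusted p up to 0.11) and with the length offset or limma (up to 0.43). Its partners EZH2 (log2 -0.063, adjusted p = 0.402) and SUZ12 (log2 -0.0083, adjusted p = 0.917) did not pass.

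Interferon-stimulated genes are given beside the set because interferon raises class I genes. Of 36 listed, 32 were tested, with a median of 0.13. In the edgeR test 8 were higher and 0 lower, as in DESeq2. In edgeR this was 25% called against 20.7% of all genes, and 25% higher against 10.1%. At an unadjusted p under 0.05 in edgeR, 15 of the 32 were higher and 0 lower, against 4834 of all 14436 genes in either direction. Without SCR1 replicate 1 or 4 the count of called genes in this list was 5, and it was 4 in limma on log2(TPM + 1). GBP4 rose from 63.3 ± 2.51 to 99.3 ± 6.69 CPM (log2 0.65, SE 0.059, adjusted p = 2.39e-06), SAMD9L from 30.2 ± 0.755 to 41.9 ± 2.76 CPM (log2 0.47, adjusted p = 0.000116), and IFIT2 from 9.82 ± 0.561 to 13.4 ± 1.04 CPM (log2 0.44, adjusted p = 0.00381). GBP2 was called at a lower level (5.94 ± 0.859 and 8.33 ± 0.473 CPM, log2 0.49, adjusted p = 0.0096) and not without SCR1 replicate 4 (adjusted p = 0.0661), with the length offset, in the limma fits or with coding transcripts only (adjusted p = 0.914). IFIT3, OAS2, XAF1 and PARP9 were called higher as well (log2 0.22, 0.30, 0.27 and 0.22). Calls of IFIT3, OAS2 and XAF1 were lost without some libraries (adjusted p up to 0.168, 0.128 and 0.109). That of PARP9 was lost with the length offset. Of the 32 genes, 25 had differences above 0, against 50.5% of all genes. Among common members that did not pass, OAS1 (log2 0.54, adjusted p = 0.0577), RSAD2 (0.43, 0.161) and IFIT1 (0.32, 0.0689) were on the higher side. MX1 stood at 0.18 (0.55), and GBP1 (-0.0098, 0.94) and ISG15 (-0.15, 0.497) were below 0.

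**Figure D4:**
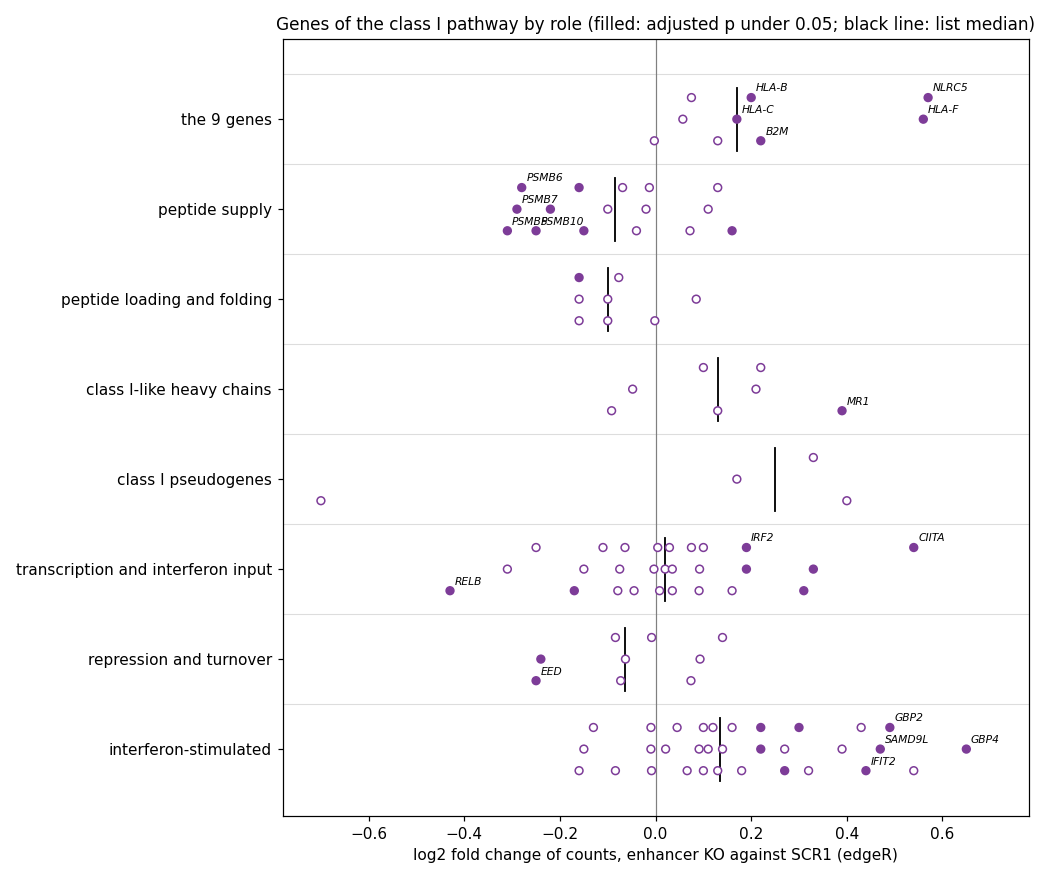
Log2 fold change in enhancer KO against SCR1 (horizontal axis) of each tested gene of the class I pathway by role and of interferon-stimulated genes, with filled points where the adjusted p was under 0.05 and black lines at list medians. Called peptide supply genes lie mostly below 0 (PSMB7 at -0.29), whereas the called genes among the 9 and among interferon-stimulated genes lie above 0 (GBP4 at 0.65).

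Most of the 9 genes lie in the MHC region, so their neighbours were examined. Within 50 kb of the 9 genes, 30 other genes were tested and 5 were called (16.7%, against 20.7% of all genes). PATL2 beside B2M was higher (1.81 ± 0.178 and 3.01 ± 0.415 CPM, log2 0.73, adjusted p = 0.0185), as was RGL2 beside TAPBP (30.2 ± 0.832 and 35.8 ± 3.95 CPM, log2 0.25, adjusted p = 0.0432). PFDN6 (log2 -0.28, adjusted p = 0.00628) and WDR46 (log2 -0.21, adjusted p = 0.0348) beside TAPBP were lower. HERPUD1 beside NLRC5 was lower too (51.8 ± 1.86 and 46.6 ± 1.39 CPM, log2 -0.15, adjusted p = 0.04), opposite to NLRC5 itself.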

How the data were processed

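RNA-seq was analysed in 9 libraries (SCR1, sgRNA_96 and sgRNA_97, 3 each, grouped by sample title). The authors prepared poly(A) libraries, used STAR with hg38 and then Salmon 1.10.1 for transcript quantification. They deposited estimated counts per transcript, without normalization, and TPM, scaled to 1000000 per library. Of the deposited estimated counts above 0, 87.8% were not whole. All 252835 transcript identifiers matched GENCODE release 44.

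Counts were summed per gene and rounded. Genes were kept by filterByExpr (minimum count 10), scaled by TMM and tested with the edgeR 4.0.16 quasi-likelihood test in R 4.3.3, adjusted by Benjamini-Hochberg over 14436 genes, with a threshold of 0.05. KO was fitted with 2 groups, and the guides in 1 fit with 3 groups. The study's methods name DESeq2 (1.42.0 here), run as an alternative with RLE factors, no filter, a replicate block, length and GC offsets, coding transcripts only, limma 3.58.1 on log2(TPM + 1) or log2(TPM + 0.1), and each library left out. The tests were checked on simulated counts.

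The genes and lists were chosen with earlier results of these data known. Named by rule were all 9 genes, MEF2C, the 6 largest rises and 6 largest falls among called pathway and interferon genes with a mean of at least 1 CPM, 9 fixed regulators and subunits (1 of them not reported here), called neighbours within 50 kb, and the 5 genes most alike by Pearson correlation. Other genes named were chosen after their values were seen. Replicates were no duplicates (chi-square per degree of freedom 4.31 to 8.59). Means are given ± SD, and log2 fold changes with the SE.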

Additional observations from a re-analysis of the deposited data

How the results depend on the processing

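Across 19 alternatives, NLRC5 and HLA-F were called higher in KO in all 19, B2M in 18, HLA-B in 17, HLA-C in 8 and HLA-E in 2, and TAP1, TAP2 and TAPBP in 0. The count of called genes among the 9 in KO was 5, and it fell to 2 with limma on log2(TPM + 1) without a filter and ranged from 3 to 6 without each library. With sgRNA_96 it was 2, against 4 with DESeq2, without a filter on low counts or with the GC offset, 1 with coding transcripts only, 0 with the unfiltered TPM, and 2 to 4 without each library. With sgRNA_97 it was 5, against 3 with coding transcripts only or with limma on log2(TPM + 1) or log2(TPM + 0.1), 1 with the unfiltered TPM, and 3 to 6 without each library. Between the guides it was 0 throughout. The count of 19 pathway genes was 8 with the length offset, 7 with limma on TPM at either pseudocount, 3 with the unfiltered TPM, 19 in edgeR without a filter on low counts, and 9 to 22 without each library. Over all genes, 2984 calls in KO became 1526 with the length offset, 1240 and 1246 with limma on TPM at the larger and smaller pseudocount, 648 with the unfiltered TPM, 1724 with coding transcripts only, and 1503 and 1813 without SCR1 replicates 1 and 4. The cause of these differences was not tested, beyond the fewer libraries or transcripts that the alternatives themselves use. Deviations of same-numbered libraries correlated between -0.0656 and 0.0552, and those of differently numbered libraries between -0.0664 and 0.0885. No shared deviation by replicate number was thus visible, but with 3 libraries a group a shared preparation cannot be told from this. With the replicate block, 5 of the 9 genes were called in KO, 3 with sgRNA_96 (B2M gained, adjusted p = 0.0317), 4 with sgRNA_97 (HLA-C lost, adjusted p = 0.0619), 0 between the guides, 21 pathway genes, and 2936 of all genes.

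Signs changed only in differences near 0 that were never called. TAP1 in KO (-0.0026) was 0.022 with the length offset, 0.018 with the GC offset, 0.024 in each limma fit and -0.023 to 0.015 without each library. TAP1 with sgRNA_96 (0.0071) was -0.0024 in edgeR without a filter on low counts, -0.0035 with the length offset and -0.028 to 0.037 without each library, and with sgRNA_97 (-0.012) it was 0.047 with the length offset, 0.018 with the GC offset, 0.045 in each limma fit and -0.067 to 0.019 without each library. Between the guides TAP1 (-0.019) was 0.05 with the length offset, 0.041, 0.042 and 0.041 in the limma fits and -0.072 to 0.014 without each library, HLA-F was -0.10 with coding transcripts only, and NLRC5 was -0.0066 with the length offset, -0.0027 with coding transcripts only, -0.028, -0.029 and -0.028 in the limma fits and -0.022 to 0.10 without each library. Leaving out 1 library also gave -0.0021 to 0.057 for TAPBP with sgRNA_97 and, between the guides, -0.0091 to 0.079 for HLA-B, -0.015 to 0.10 for HLA-C and -0.008 to 0.058 for TAP2. At 637 counts or more per library, depth limits HLA-F most.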
